A study of Mus musculus with 9 samples.

Results

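The zygotene spermatocytes (SC) described here are 2543 of the 45132 barcodes of mouse testis that passed a filter of over 1000 detected genes and under 10% mitochondrial UMIs (unique molecular identifiers, each standing for 1 captured RNA molecule). A barcode was a member if it held a UMI in at least 3 of 6 genes (Rad51ap2, Ccnb3, Tafa1, Ccdc152, A830018L16Rik and Zfy2), at least 1 UMI of Sycp3, at most 1 of Stra8 and at most 3 of Piwil1. The members were thus chosen by the UMIs of these 9 genes, whose values are given as a description and were not tested. Whole testes of 9 mice at postnatal day 24 were dissociated and profiled by droplet 3′ single cell RNA-seq, with 1 library a mouse. The mice were 4 controls, 2 NELF-B cKO and 3 TDP-43 cKO.

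The cKO (conditional knockout) mice carried 1 floxed and 1 null allele of the targeted gene and the Stra8-iCre transgene, on a C57BL/6J background. In NELF-B cKO mice, exons 1 to 4 of Nelfb were floxed, and in TDP-43 cKO mice it was exon 3 of Tardbp. The study's text places the start of excision in spermatogonia (SG) in the first postnatal week and full penetrance only weeks later, so some germ cells at this age can still carry an intact allele. The controls were littermates or non-littermates, and the labels do not give their alleles. Nothing in the labels ties a mouse of one genotype to a mouse of another.

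In the zygotene stage of meiotic prophase I, homologous chromosomes pair and the synaptonemal complex begins to join them, while double-strand breaks made by SPO11 are processed by the strand exchange proteins. Regions that stay unpaired are silenced, and in males the X and Y chromosomes, which pair over a short region only, are shut down as cells enter the pachytene stage. Cells that fail in pairing or repair are removed by checkpoints around this transition. NELF-B is a subunit of the negative elongation factor that holds RNA polymerase II paused near promoters, and TDP-43 is an RNA-binding protein of the nucleus that acts in splicing and transcription.

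The label was compared in the control mice with Sycp1, which was among the markers given for this stage but which the rule did not use. Sycp1, the transverse filament of the synaptonemal complex, stood at 2848, 3069, 3726 and 3318 CPM (counts scaled to the same total of UMIs in each sum) in the summed members of control replicates 1 to 4. Its mean was 874 CPM in barcodes with at least 2 Stra8 UMIs (the Stra8 gate, cells at or before leptotene) and 752 CPM in barcodes with at least 4 Piwil1 UMIs (the Piwil1 gate, cells from pachytene on). The values of 3 genes of the rule follow as a description, since their limits were set by it. Sycp3, part of the axial element, was at 2443 to 2784 CPM in the members against means of 553 and 624 CPM in those gates. Stra8, which starts meiosis in response to retinoic acid, was at 4.93 to 10.4 CPM in the members and 590.01 CPM in its own gate. Piwil1, a piRNA-binding protein of pachytene SC, was at 84.5 to 107 CPM in the members and 659.7 CPM in its own gate.

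By a rule that took the largest ratio of the members' mean in control mice to the higher of the 2 neighbouring gates, 12 genes marked the members, and they include all 6 genes of the gate. Gm50299, a predicted gene on chromosome 19 that the gate did not use, had the largest ratio, 40.4, with 50.3, 68.7, 59.4 and 52.5 CPM in the 4 control mice and means of 0.857 and 1.43 CPM in the Stra8 and Piwil1 gates. Gm14221 had a ratio of 10.2. Meiob, a partner of SPATA22 that coats single-stranded DNA at breaks, was at 302 to 335 CPM and had a ratio of 7.56. The Y-linked zinc finger gene Zfy1 had a ratio of 7.15, Ggh, a gamma-glutamyl hydrolase, of 5.85 and the X-linked Pet2 of 5.24. The gate genes among the 12 run from a ratio of 24.1 for Tafa1 to 5.51 for Ccnb3, a cyclin of meiotic prophase.

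**Figure D1:**
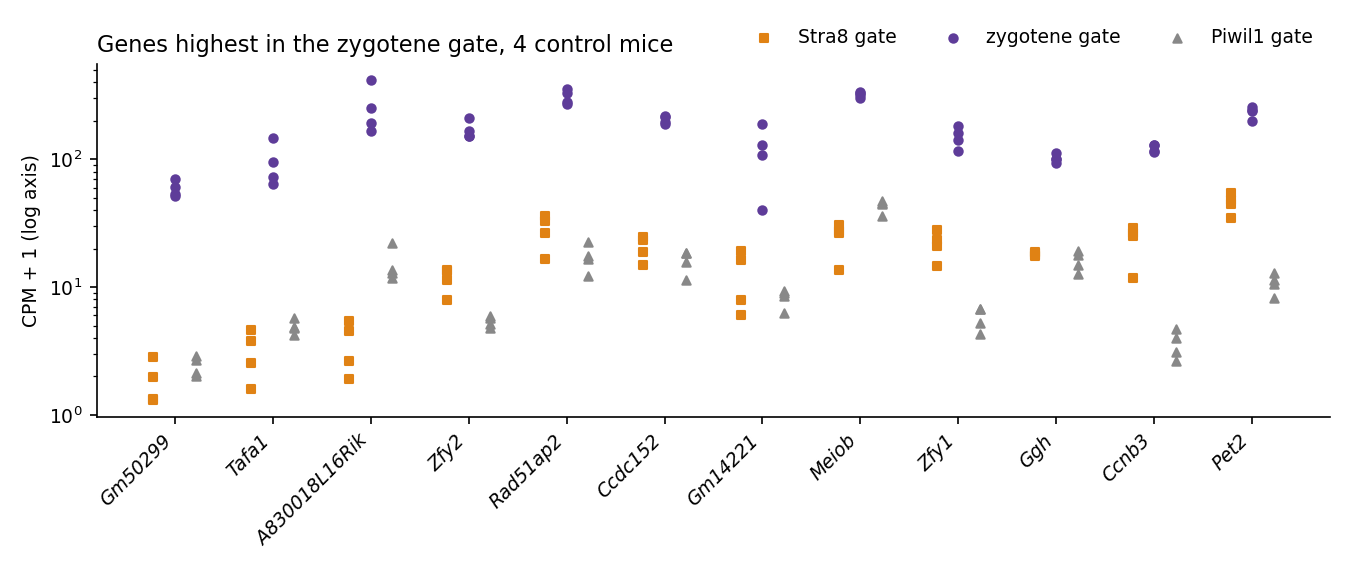
CPM + 1 on a log axis of the 12 genes with the largest ratio to the neighbouring gates, 1 point for each of the 4 control mice and each of 3 gates (squares, Stra8 gate; circles, zygotene gate; triangles, Piwil1 gate). For Gm50299 the ratio of the member mean to the higher neighbour is 40.4 and for Pet2 5.24, and the member points lie above both neighbours in each of these genes.

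At the limits of the rule, 688 members held exactly 3 of the 6 genes, and 734, 640 and 481 held 4, 5 and 6. Another 1089 barcodes that met the other conditions held 2 and lay just outside. A single Stra8 UMI was present in 302 members, and 86 barcodes with 2 were outside. Of the Piwil1 counts, 1313 members held 0 and 165 held 3, and 82 barcodes with 4 were outside. Only 19 barcodes were left out for want of a Sycp3 UMI. No barcode sequence was a member in more than 1 library, and 34 members shared their sequence with a barcode past the filter in another library.

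The 9 libraries held 119203347 to 159407373 UMIs in all, of which 37.5% to 78.3% were in barcodes past the filter. The summed members of a mouse held 1372756 to 9813732 UMIs. Median UMIs of a member were 8486 to 10392 in the control mice, 8768 and 12752 in NELF-B cKO mice and 18435.5, 11059 and 11192.5 in TDP-43 cKO mice. NELF-B cKO replicate 1 stood apart by its spermatid RNA: 10 round spermatid genes summed to 2916 CPM in its members, against 464 to 813 CPM in the controls, 57.0 CPM in the other NELF-B cKO mouse and 53.7 to 310.3 CPM in TDP-43 cKO mice. TDP-43 cKO replicate 1 stood apart by depth and by holding only 8 barcodes of the Piwil1 gate. The 7 Sertoli markers summed to 163 to 322 CPM in control members, 510.4 and 699.8 CPM in NELF-B cKO mice and 593 to 941 CPM in TDP-43 cKO mice, while the same genes made up 508 to 965, 379.99 to 3583 and 1749 to 2281 CPM of the free RNA, read from barcodes of 1 to 100 UMIs. Clu, one of these Sertoli genes, gave a UMI in 44.4% to 98.7% of the members of a mouse and in 97.0% to 99.6% of the barcodes with 4 or more Sertoli markers. The summed markers of other cells also varied between groups. SG markers summed to 72.1 to 135 CPM in the controls, 109 and 281 CPM in NELF-B cKO mice and 215 to 421 CPM in TDP-43 cKO mice, and Leydig markers to 20.0 to 123, 147 to 209 and 50.8 to 168 CPM. Macrophage markers summed to 3.36 to 8.91, 39.2 to 69.6 and 7.13 to 30.6 CPM in the same order, and stromal markers to 3.59 to 7.28, 41.9 to 51.2 and 10.9 to 52.7 CPM. Endothelial and myoid markers summed to at most 29.4 CPM in any mouse. A UMI in at least 2 markers of 1 other lineage, round spermatids included, was present in 41.9% to 91.0% of the members of a mouse, so the alternative that left such members out kept 14 to 235 cells a mouse. The part of this RNA in the results was not tested except by the alternatives named beside them.

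The targeted genes were examined first. Nelfb stood at 56.8, 41.6, 46.8 and 47.5 CPM in the members of the 4 control mice, 7.47 and 6.67 CPM in NELF-B cKO mice and 46.9, 42.2 and 42.7 CPM in TDP-43 cKO mice. Both NELF-B cKO mice lay far below every other mouse. The log2 fold change was −2.88 ± 0.22 (SE, adjusted p = 0.00618, edgeR quasi-likelihood test with Benjamini-Hochberg adjustment, 2 mice against 4), and it was still called without either NELF-B cKO mouse. Of members cut to 5000 UMIs each, 0.870% and 2.54% held a Nelfb UMI in NELF-B cKO mice, against 20.5% to 26.8% of control members, and 7.89% to 14.5% of thinned control Sertoli barcodes did. Of thinned Sertoli barcodes in NELF-B cKO replicates 1 and 2, 6.15% and 3.125% did.

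Tardbp was at 195, 176, 238 and 232 CPM in the control mice, 127 and 210.04 CPM in NELF-B cKO mice and 65.5, 79.4 and 85.0 CPM in TDP-43 cKO mice. The 3 TDP-43 cKO mice did not overlap the controls, and Tardbp fell (log2 fold change −1.47 ± 0.21, adjusted p = 0.0166), a call that was lost without TDP-43 cKO replicate 1 (adjusted p = 0.0635), TDP-43 cKO replicate 3 (0.0712) or control replicate 3 (0.0609). A Tardbp UMI was present in 30.8% to 34.0% of thinned TDP-43 cKO members, 69.0% to 75.6% of thinned control members and 34.2% to 43.5% of thinned control Sertoli barcodes. Among thinned Sertoli barcodes of the TDP-43 cKO mice it was 29.6% to 33.3%, level with the members of these mice. The 3′ libraries read the end of the transcript and not the floxed exon, so a Tardbp UMI does not tell an intact from a deleted allele. Members in which the targeted gene still gave a UMI were kept here, whereas the study left such germ cells out of the cKO mice.

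The first comparison asked whether the cKO mice held fewer or more cells of this stage. Members made up 1.57%, 2.57%, 5.17% and 7.91% of the barcodes past the filter in the 4 control mice (120, 217, 265 and 386 cells), with a mean of 4.30% ± 2.84 (SD, n = 4). In NELF-B cKO mice they were 3.00% and 5.20% (169 and 155 cells, mean 4.10% ± 1.56), inside the control range. In TDP-43 cKO mice they were 3.95%, 16.3% and 16.9% (156, 493 and 582 cells, mean 12.4% ± 7.30). TDP-43 cKO replicates 2 and 3 lay above every control mouse and replicate 1 lay among them.

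Neither difference passed the test. The NELF-B cKO mean was lower by 0.207 percentage points (exact two-sided permutation test, p = 0.933, adjusted p = 1.0 over 6 tests), and the TDP-43 cKO mean was higher by 8.07 points (exact permutation p = 0.171, adjusted p = 0.343). These designs cannot give an exact p below 0.133 for 2 mice against 4 and 0.0571 for 3 against 4. Wilson 95% intervals for single mice ran from 1.32% to 1.88% at the lowest share to 15.6% to 18.1% at the highest, and they cover counting error only. Both differences moved with the handling of the cells. With barcodes of under 5000 UMIs left out and the others thinned to 5000 before the gate, NELF-B cKO was lower by 4.38 points without overlap (exact permutation p = 0.133) and TDP-43 cKO higher by 3.71 points (exact permutation p = 0.343). With members holding a UMI of the targeted gene removed from cKO mice, as the study did, TDP-43 cKO was higher by 0.764 points (exact permutation p = 0.800), and with such removal in control mice too by 4.45 points without overlap (exact permutation p = 0.0571). Members per barcode of the Sertoli gate were 0.678 to 1.11 in the controls, 0.845 and 0.190 in NELF-B cKO mice and 0.208, 1.36 and 1.34 in TDP-43 cKO mice. A share of captured barcodes cannot tell more zygotene cells from fewer cells of other kinds or from unequal capture and survival in dissociation.

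Among barcodes of the 3 prophase gates, members were 14.1% to 23.6% in the controls, 13.01% and 26.4% in NELF-B cKO mice and 15.8%, 34.1% and 36.0% in TDP-43 cKO mice. The Stra8 gate before them held 15.2% to 29.9% of prophase barcodes in the controls, 50.3% and 63.6% in NELF-B cKO mice and 83.4%, 52.9% and 53.8% in TDP-43 cKO mice. The Piwil1 gate after them held 48.97% to 70.7% in the controls, 36.7% and 10.0% in NELF-B cKO mice and 0.808%, 12.95% and 10.2% in TDP-43 cKO mice. No cKO mouse overlapped the controls in either neighbouring gate, whereas the zygotene gate overlapped in both genotypes. In an edgeR test of the numbers of barcodes per gate, with those past the filter as library size, the zygotene gate did not pass in either cKO (log2 fold change −0.07, adjusted p = 0.952, and 1.52, adjusted p = 0.152, over 4 gates each). The Stra8 gate was higher in both (1.36, adjusted p = 0.0444, and 2.34, adjusted p = 2.993e-04), and so was the Sertoli gate (1.84, adjusted p = 0.0444, and 1.75, adjusted p = 0.0367). The Piwil1 gate did not pass in either (−1.23, adjusted p = 0.389, and −1.72, adjusted p = 0.132). In NELF-B cKO replicate 1 the Sertoli gate held 200 of 5638 barcodes past the filter, a share among the controls. In replicate 2 it held 817 of 2982. Of barcodes thinned to 5000 UMIs, the control Stra8 gates held 124 of 1580, 148 of 2205, 224 of 2076 and 197 of 2646. Those of NELF-B cKO mice held 358 of 2874 and 186 of 2567. Those of TDP-43 cKO mice held 365 of 3509, 363 of 2462 and 384 of 2897. Both genotypes overlapped the controls in that share, which was not tested.

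**Figure D2:**
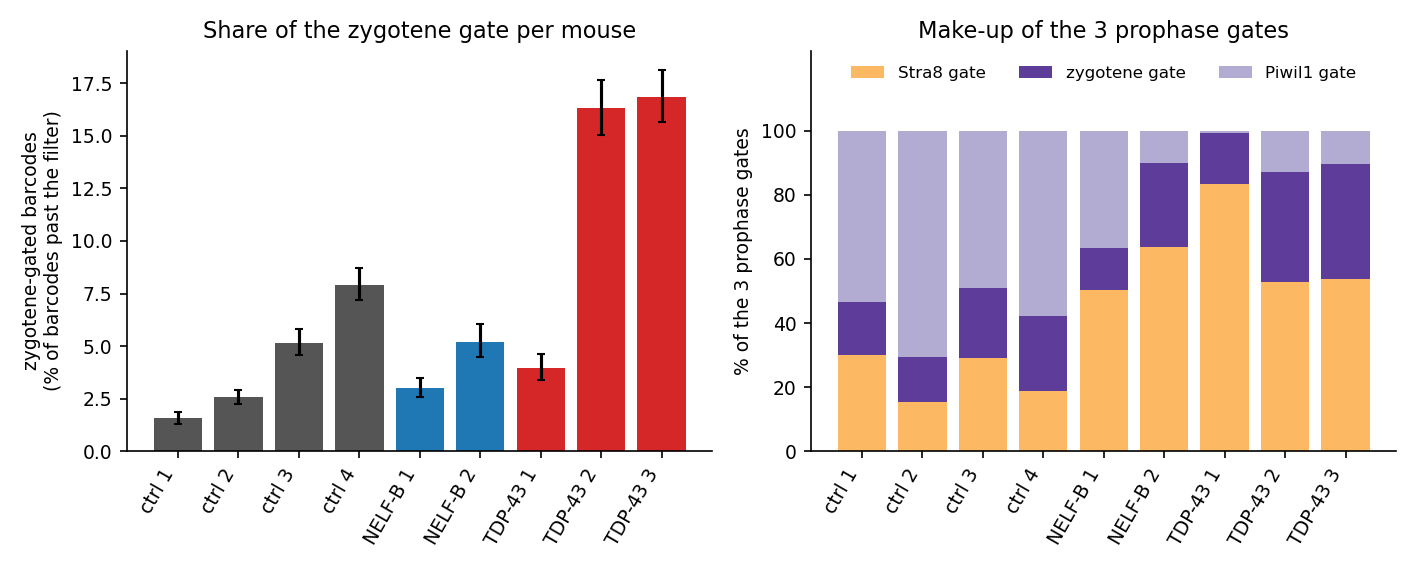
Left, members as a percentage of barcodes past the filter, 1 bar a mouse with its Wilson 95% interval, and right, the make-up of the 3 prophase gates of each mouse in percent. Members range from 1.57% to 7.91% in the control mice and reach 16.9% in TDP-43 cKO replicate 3, while the Piwil1 gate holds 0.808% to 36.7% of prophase barcodes in the cKO mice and 48.97% to 70.7% in the controls.

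How far the members of a mouse had moved toward pachytene was read from 2 lists outside the gate, as a log2 ratio of later to earlier genes. The 8 later genes were Id4, Cntd1, Pou5f2, Tbpl1, Acr, Spag6, Hspa2 and Mybl1, and the 5 earlier ones Prdm9, Dmc1, Prss50, Rhox13 and Brca2. Pou5f2, Tbpl1 and Acr are also among 4 diplotene markers. These 4 summed to 270 to 424 CPM in control members and 798 to 1021 CPM in control free RNA. In TDP-43 cKO mice they summed to 113 to 208 and 60.6 to 255 CPM. The ratio was 0.88, 0.96, 0.26 and 0.59 in the control mice, 1.71 and −0.35 in NELF-B cKO mice and −0.59, 0.51 and 0.44 in TDP-43 cKO mice. The NELF-B cKO mice lay on either side of the controls, and replicate 1, with the high value, is the mouse with the spermatid RNA. Mean differences from control were 0.01 (exact two-sided permutation p = 1.0) and −0.55 (exact permutation p = 0.229). Later genes also occur in free RNA: with deep members left out (those of over 2.5 times the median UMIs of their mouse) and free RNA subtracted, a joint alternative chosen after seeing the data, the TDP-43 cKO difference turned to 0.39. It was −0.48 without deep members alone and −0.85 with members holding a UMI of the targeted gene removed from cKO mice, as the study did, in both without overlap (exact permutation p = 0.0571 each, the smallest possible). With members holding a Tardbp UMI removed in all mice, the groups overlapped. The ratios were then 0.33, 1.11, 0.23 and −0.29 in the controls and −0.86, 0.10 and 0.24 in TDP-43 cKO mice. The free RNA estimate took every Sertoli and Leydig marker UMI of the members as free RNA, and it was unequal between groups. It was 23.6% to 33.8% of UMIs in the controls, 28.0% and 13.4% in NELF-B cKO mice and 11.2% to 15.9% in TDP-43 cKO mice. Without deep members the ratios were 0.11 to 0.52 in the controls and −0.75 to 0.10 in TDP-43 cKO mice. With free RNA subtracted too they were −0.88 to −0.15 and −0.75 to 0.04.

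RNA of the X chromosome was higher in the members of every cKO mouse. X-linked genes, without Ccnb3, gave 1.51%, 1.69%, 1.61% and 1.56% of the UMIs of the summed members in the control mice (mean 1.59% ± 0.0785). They gave 2.00% and 2.38% in NELF-B cKO mice (mean 2.19% ± 0.274) and 2.83%, 2.45% and 2.68% in TDP-43 cKO mice (mean 2.65% ± 0.191). All 5 cKO mice exceeded all 4 controls, and the 3 TDP-43 cKO mice exceeded both NELF-B cKO mice, a difference that was not tested. The differences were 0.601 percentage points (exact two-sided permutation p = 0.133) and 1.06 points (exact permutation p = 0.0571), each the smallest p its design allows, and both had an adjusted p of 0.343 over the 6 tests. Y-linked genes, without Zfy2, gave 0.0762% to 0.107% in the controls, 0.137% and 0.110% in NELF-B cKO mice and 0.105% to 0.132% in TDP-43 cKO mice.

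The neighbouring gates give the frame. In the Stra8 gate the X-linked share was 1.86% to 2.12% in the controls, 2.07% and 2.10% in NELF-B cKO mice and 2.14% to 2.33% in TDP-43 cKO mice. In the Piwil1 gate it was 0.273% to 0.332%, 0.279% to 0.314% and 0.318% to 0.435% in the same order of groups. Control members thus stood below the Stra8 gate and far above the Piwil1 gate, whereas TDP-43 cKO members stood above both. In NELF-B cKO replicate 1 the members were below the Stra8 gate of the same mouse, and in replicate 2 above it. Barcodes of the Sertoli gate differed too, with an X-linked share of 1.03% to 1.97% in the controls, 2.75% and 2.79% in NELF-B cKO mice and 2.78% to 3.85% in TDP-43 cKO mice. After thinning to 5000 UMIs before the gate these ranges were 3.15% to 3.89%, 3.71% and 4.04%, and 4.06% to 4.46%. These barcodes also held RNA of the later germ cell genes listed above, and more of it in the controls. It summed to 1412 to 1879, 874 and 381, and 143 to 708 CPM in the same order of groups. After thinning it summed to 503 to 1036, 440 and 205, and 171 to 243 CPM. Whether Sertoli cells themselves differed in X-linked RNA was not tested. The Sertoli markers stood at 163 to 322 CPM in control members and 510.4 to 941 CPM in cKO members. Among the controls, replicate 2 had the lowest Sertoli sum, 163 CPM, and the highest X-linked share of the members, 1.69%. Replicate 4 had the highest sum, 322 CPM, and 1.56%. Among the cKO mice, NELF-B cKO replicate 1 was lowest in both (510.4 CPM and 2.00%) and TDP-43 cKO replicate 1 highest (941 CPM and 2.83%). Without members holding other-lineage UMIs the X-linked differences were 0.561 points for NELF-B cKO and 0.763 points for TDP-43 cKO, without overlap, and the part of other RNA of Sertoli cells was not tested.

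**Figure D3:**
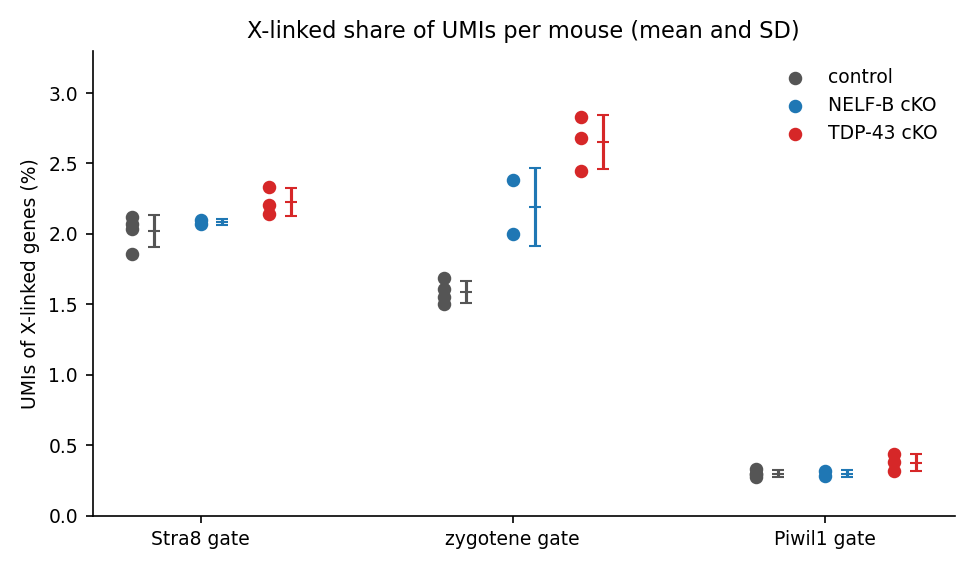
UMIs of X-linked genes in percent of all UMIs outside the gate genes, 1 point a mouse with the group mean and SD, in the Stra8, zygotene and Piwil1 gates. In the zygotene gate the control mice sit at 1.51% to 1.69%, the NELF-B cKO mice at 2.00% and 2.38% and the TDP-43 cKO mice at 2.45% to 2.83%, without overlap.

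Over single control members the X-linked share had a low and a high peak. Under 1% of UMIs were X-linked in 24.0% to 35.0% of the members of the 4 control mice, in 10.7% and 5.81% of those of the NELF-B cKO and in 1.28%, 12.0% and 11.5% of those of the TDP-43 cKO. For comparison, at most 2.98% of the Stra8 gate and at least 82.1% of the Piwil1 gate of any mouse lay under 1%. Part of the members, larger in the controls, thus had X-linked shares like those of the Piwil1 gate. Whether these cells are zygotene was not tested. The median of the members at 1% or more was 2.10% to 2.33% in the controls, 2.21% and 2.44% in NELF-B cKO mice and 2.79%, 2.82% and 2.93% in TDP-43 cKO mice. NELF-B cKO replicate 1 lay inside the control range there, and the 3 TDP-43 cKO mice lay above it.

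Leaving out members under 1% chooses cells by the measure itself and takes more of them from the controls, so the shares that remain are a description with no test. They were 1.99% to 2.23% in the controls, 2.86%, 2.71% and 2.93% in TDP-43 cKO mice and 2.19%, among the controls, and 2.4997%, above them, in NELF-B cKO mice. Members with 5 or 6 gate genes had a higher share than those with 3 or 4 in every mouse, 1.70% to 1.91% against 1.44% to 1.56% in the controls and 2.84% to 3.06% against 1.86% to 2.52% in TDP-43 cKO mice. Ccnb3 is X-linked and Zfy2 Y-linked, and with both dropped from the gate, an alternative also added later, the differences were 0.717 points for the NELF-B cKO and 1.22 points for the TDP-43 cKO, without overlap.

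**Figure D4:**
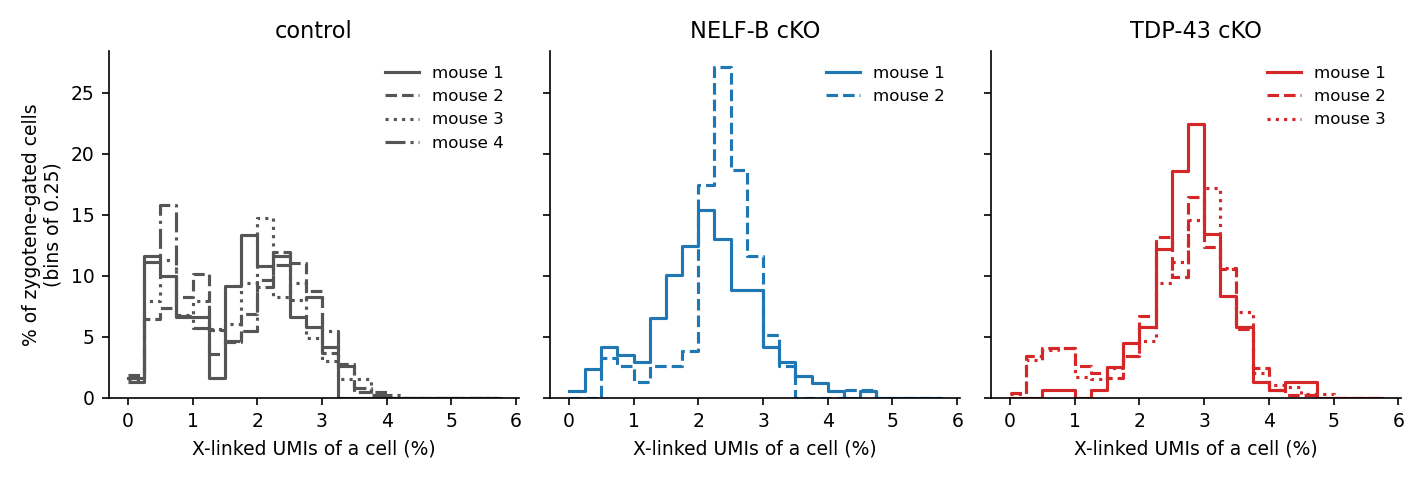
Distribution over members of the X-linked percentage of a cell's UMIs in bins of 0.25 percentage points, 1 line a mouse, in the control, NELF-B cKO and TDP-43 cKO groups. The low peak holds 24.0% to 35.0% of control members under 1%, and 1.28% to 12.0% of those of the cKO mice.

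Gene by gene, sums of the members were tested with edgeR over 15210 genes. In TDP-43 cKO mice 769 genes rose and 52 fell at an adjusted p under 0.05, which is 5.40% of the genes tested (5.06% higher and 0.342% lower). In NELF-B cKO mice the test called 1 gene, the targeted Nelfb, which is 0.00657% of those tested, and 0 higher. At an unadjusted p under 0.05 there were 2232 genes for the NELF-B cKO, and DESeq2 called 459. Between the cKO genotypes the test called 1 gene as well, again Nelfb (0.00657%). Without NELF-B cKO replicate 2 the count was 450 against control and 3845 between the cKO genotypes, and without NELF-B cKO replicate 1 it was 3 and 0. The count for the TDP-43 cKO depended on single mice: it was 53, 286 and 13 without TDP-43 cKO replicates 1, 2 and 3, 213, 159, 16 and 385 without control replicates 1 to 4, and 2417 and 2366 without NELF-B cKO replicates 1 and 2, which share the estimate of spread. With members holding a UMI of the targeted gene removed from cKO mice 242 genes were higher and 30 lower, and without members holding other-lineage UMIs 70 were higher and 272 lower. The p-values measure the spread between these mice, and each mouse is 1 library. Lack of overlap with the control mice was common: it held for 39.3% of all genes in TDP-43 cKO mice and 20.5% in NELF-B cKO mice.

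X-linked genes were then set beside autosomal ones. Of 609 tested in TDP-43 cKO mice, 150 rose (24.6%) and 0 fell, with a median log2 fold change of 0.75, against 617 higher (4.24%) and 52 lower of 14544 autosomal genes with a median of −0.02. The 150 had log2 fold changes of 0.57 to 4.01. None of the 609 passed for NELF-B cKO mice, their median was 0.44 and 78.5% were above 0, beside a median of 0.00 for autosomal genes. The X-linked median was 0.26 without NELF-B cKO replicate 2, with 61.3% above 0, and 0.49 without replicate 1, with 73.2% above 0. DESeq2 called 47 of 596 X-linked genes higher (7.89%) and 0 lower in that contrast, beside 292 higher (2.06%) and 119 lower of 14174 autosomal genes. Directly between the cKO genotypes, the X-linked median was 0.36 with 0 called. DESeq2 called 16 of 635 (2.52%) higher and 2 lower in TDP-43 cKO than in NELF-B cKO mice. Of 15161 autosomal genes it called 43 higher (0.284%) and 25 lower. In edgeR the X-linked median was 0.61 without NELF-B cKO replicate 2, beside 0.21 for autosomal genes, and 0.29 without replicate 1, beside 0.14.

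Leaving out TDP-43 cKO replicate 3 left 7 of the 150 called, leaving out control replicate 3 left 10 and TDP-43 cKO replicate 1 left 23, and 56 to 65 remained without each of TDP-43 cKO replicate 2 and control replicates 1, 2 and 4. The sign was the same for every one of the 150 that could be tested in each of these fits. Without TDP-43 cKO replicate 3, control replicate 3 and TDP-43 cKO replicate 1, 1.18%, 1.60% and 3.89% of all X-linked genes tested were called higher. Of autosomal genes 0.0422%, 0.0400% and 0.213% were. Without TDP-43 cKO replicate 2 or control replicate 1, 2 or 4 it was 9.03% to 11.7% of X-linked and 0.666% to 2.14% of autosomal genes. With members holding a UMI of the targeted gene removed from cKO mice, 99 of 149 were called and 137 kept their sign, and with Tardbp UMIs removed in all mice 17 of 110 and 104. With 0 Stra8 and 0 Piwil1 UMIs required, 32 of 147 were called and all 147 kept their sign. Without members holding other-lineage UMIs, 37 of 112 were called and 109 kept their sign, and with deep members left out and free RNA subtracted 71 of 136 and 132. The median over all X-linked genes tested, 0.75 with all members, was 0.59, 0.72, 0.62, 0.41 and 0.44 in these 5 settings. Called higher there were 22.8%, 6.49%, 6.69%, 12.5% and 18.5% of X-linked genes and 0.804%, 0.0528%, 0.457%, 0.393% and 1.84% of autosomal genes. With members under 1% X-linked UMIs left out, which chooses cells by the X-linked share, the X-linked median was 0.34. In that fit 48 of 604 X-linked genes were called higher and 3 lower, beside 218 higher and 68 lower of 14096 autosomal genes.

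Gm5934, an X-linked predicted gene, showed the largest X-linked change among the more abundant genes. It was at 11.7, 40.9, 18.9 and 14.6 CPM in the control mice, 106 and 78.2 CPM in NELF-B cKO mice and 283, 328 and 358 CPM in TDP-43 cKO mice. The 3 groups did not overlap. It rose in TDP-43 cKO mice (log2 fold change 3.88 ± 0.37, adjusted p = 0.00556) and was called without each of the 9 mice in turn, while in NELF-B cKO mice the log2 fold change of 1.96 ± 0.39 did not pass (adjusted p = 0.114). Without NELF-B cKO replicate 2 it was called in that contrast too (2.14, adjusted p = 0.0475), and without replicate 1 it was not (1.74, adjusted p = 0.0753). Gm5934 was at 0.202 CPM in the Stra8 gate and 0.587 CPM in the Piwil1 gate of the controls, and at 5.27 and 9.27 CPM in those of the TDP-43 cKO.

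H2bfm, an X-linked histone H2B gene of the testis, was at 8.74, 10.2, 13.6 and 9.42 CPM in the controls, 13.8 and 28.2 CPM in NELF-B cKO mice and 47.6, 67.6 and 77.6 CPM in TDP-43 cKO mice (log2 fold change 2.59 ± 0.30, adjusted p = 0.0108). Pet2, one of the 12 marking genes, was at 241, 257, 236 and 199 CPM, then 235 and 380.4 CPM, then 629, 599 and 645 CPM (1.41 ± 0.16, adjusted p = 0.0108). All 3 TDP-43 cKO mice were above all 6 others for both genes, and the NELF-B cKO mice overlapped the controls for Pet2. Rbmx, an RNA-binding protein of splicing, rose by 1.59 ± 0.20 (adjusted p = 0.0113), from 15.7 to 21.9 CPM in the controls to 45.2, 55.0 and 59.7 CPM. H2bfm, Pet2 and Rbmx were called without members holding other-lineage UMIs, and also with deep members left out and free RNA subtracted.

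Of the X-linked testis genes on a list of 30, 26 were tested and 13 rose in TDP-43 cKO mice, where 5.06% of all genes and 24.6% of X-linked genes were called higher, with a median log2 fold change of 0.91 beside −0.01 over all genes. In NELF-B cKO mice none passed and the median was 0.55 beside 0.01. Taf7l, a TAF7 paralogue of germ cells, was at 243, 263, 279 and 207 CPM in the controls, 282 and 539 CPM in NELF-B cKO mice and 555, 515 and 545 CPM in TDP-43 cKO mice (1.10 ± 0.20, adjusted p = 0.0240). Pramel3 (1.98 ± 0.27, adjusted p = 0.0139), Mageb16 (1.36 ± 0.20, adjusted p = 0.0166) and the zinc finger gene Zfx (0.95 ± 0.17, adjusted p = 0.0231) rose too. The list was made with earlier results of these data known.

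Zfx has Y-linked relatives whose products are known to act in meiotic sex chromosome inactivation and in the elimination of cells that fail it. Zfy1 was at 114, 179, 159 and 141 CPM in the controls, 217 and 266 CPM in NELF-B cKO mice and 259, 289.6 and 293 CPM in TDP-43 cKO mice. Every cKO mouse was above the controls, and Zfy1 rose in TDP-43 cKO mice (0.90 ± 0.15, adjusted p = 0.0208), while 0.58 ± 0.17 in NELF-B cKO mice did not pass (adjusted p = 0.187). Zfy2, a gate gene and thus a description, was at 165, 208, 151 and 151 CPM, then 168 and 233 CPM, then 250.3, 311 and 340.2 CPM. Scml2, an X-linked Polycomb protein that takes part in germline gene silencing, rose by 0.80 ± 0.19 (adjusted p = 0.0453), from 251 to 351 CPM in the controls to 477 to 543 CPM. Zfy1 and Scml2 were the 2 of 18 tested checkpoint and silencing genes that passed, beside 5.40% of all genes. The kinase gene Atr, Topbp1, Mdc1 and H2afx, which spread the silencing signal over the unpaired axes, were on that list and none of them passed, and its median was −0.06 in TDP-43 cKO mice and −0.12 in NELF-B cKO mice.

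Genes of the p53 response and apoptosis gave 4 higher and 0 lower of 16 tested in TDP-43 cKO mice, where 5.06% of all genes were called higher, with a median log2 fold change of 0.62, and 0 of 16 in NELF-B cKO mice, with a median of 0.19. Eda2r, an X-linked death receptor gene and p53 target, was at 0.728, 0.330, 1.07 and 0.448 CPM in the controls, 4.86 and 1.85 CPM in NELF-B cKO mice and 7.94, 12.7 and 10.5 CPM in TDP-43 cKO mice. The 3 groups did not overlap, and it rose by 4.01 ± 0.52 (adjusted p = 0.0113). Its control values lie near the floor, in sums of 1372756 to 4460058 UMIs, so the size of this change is uncertain. Cdkn1a, the p21 inhibitor of cell cycle kinases, was at 5.16 to 7.28 CPM in the controls, 16.4 and 10.4 CPM in NELF-B cKO mice and 21.4, 18.3 and 18.3 CPM in TDP-43 cKO mice (1.70 ± 0.25, adjusted p = 0.0166). Ccng1, cyclin G1, rose by 1.38 ± 0.22 (adjusted p = 0.0180), from 8.74 to 12.9 CPM in the controls to 21.7 to 31.4 CPM. Pmaip1, which encodes the pro-apoptotic protein NOXA, rose by 1.28 ± 0.23 (adjusted p = 0.0232), from 12.4 to 20.5 CPM to 36.8 to 44.0 CPM.

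Free RNA of the TDP-43 cKO libraries held 13.5 to 22.9 CPM of Cdkn1a and 29.8 to 38.0 CPM of Ccng1, against 4.76 to 7.73 and 4.51 to 10.2 CPM in the control libraries. With deep members left out and free RNA subtracted, Eda2r (adjusted p = 0.0330) and Pmaip1 (0.0467) were called and Cdkn1a (0.360) and Ccng1 (0.0604) were not, where 273 of all 10859 genes tested were called higher. Without deep members alone Eda2r, Pmaip1 and Ccng1 were called and Cdkn1a was not. Without members holding other-lineage UMIs, 0 of 10 genes of this list passed, with a median of 0.42, where 70 of all 8463 genes tested were called higher.

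**Figure D5:**
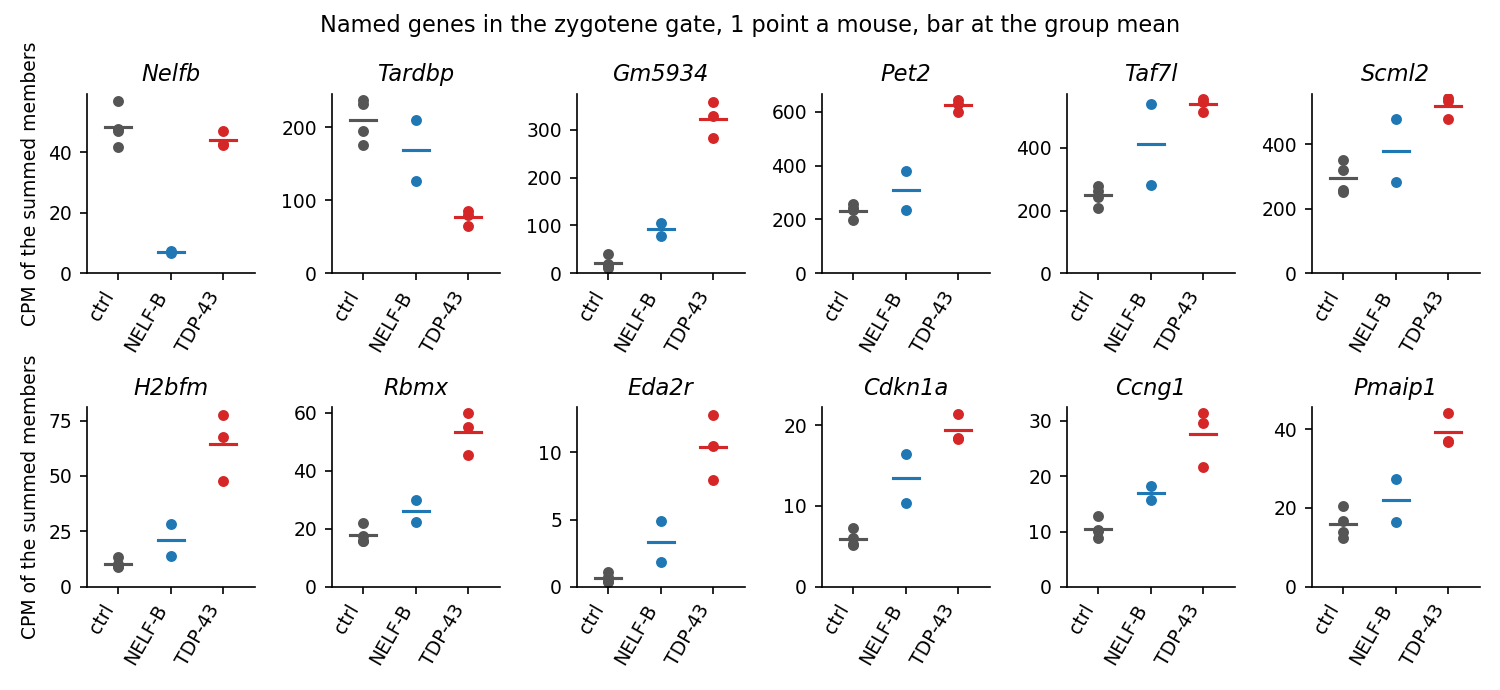
CPM in the summed members of 12 genes, 1 point a mouse with a bar at the group mean and axes from 0 in each panel. Nelfb is low in the 2 NELF-B cKO mice and Tardbp in the 3 TDP-43 cKO mice, and Gm5934, H2bfm and Eda2r are above the other mice in TDP-43 cKO mice, with Gm5934 at 283 to 358 CPM against 11.7 to 40.9 CPM in the controls.

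The machinery of pairing and recombination gave no call in either cKO in the fit of all 9 mice. Of the genes tested, 0 passed in either direction among 12 of double-strand break formation, 38 of strand exchange and repair, 19 of the synaptonemal complex and axis, 17 of crossover formation and 11 of telomere attachment, beside 5.40% of all genes called in TDP-43 cKO mice and 0.00657% in NELF-B cKO mice. Their median log2 fold changes were −0.02, −0.06, −0.12, −0.23 and 0.03 in TDP-43 cKO mice. For NELF-B cKO mice they were −0.21, −0.29, −0.26, −0.27 and −0.38. Without NELF-B cKO replicate 1 these medians were 0.22, −0.02, 0.01, −0.08 and −0.09 with 0 called. Without replicate 2 they were −0.62, −0.59, −0.59, −0.38 and −0.49, and 2, 2, 5, 3 and 1 genes of the lists were called lower, where 327 of all 17152 genes tested were called lower. In these fits the lone NELF-B cKO mouse is assumed to vary like the other groups. A p that misses the threshold in 2 or 3 mice does not show that these genes were unaffected.

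Spo11, the nuclease that makes the breaks, was at 109, 83.9, 104 and 105 CPM in the controls, 42.2 and 81.1 CPM in NELF-B cKO mice and 65.9, 59.5 and 56.6 CPM in TDP-43 cKO mice. Every cKO mouse was below every control mouse, but neither test passed (log2 fold change −0.83 ± 0.25, adjusted p = 0.196, and −0.75 ± 0.22, adjusted p = 0.0840). Over all genes 39.3% were without overlap between the TDP-43 cKO and the control mice. Spo11 was called at −1.38 without NELF-B cKO replicate 2 (adjusted p = 0.0392), and was at −0.39 without replicate 1 (adjusted p = 0.205). Meiob was at 317, 302, 335 and 330.3 CPM, then 198 and 297 CPM, then 241, 229 and 231 CPM, again without overlap and without passing (−0.50 ± 0.16, adjusted p = 0.211, and −0.48 ± 0.14, adjusted p = 0.0849), and Meiob too was called without NELF-B cKO replicate 2 (−0.83, adjusted p = 0.0392) and not without replicate 1 (−0.20, adjusted p = 0.333). Spata22, which forms a complex with MEIOB, and Rad51c, a gene of recombination repair, overlapped the controls in both cKO groups (adjusted p of 0.632 and 0.697 for Spata22 and 0.675 and 0.508 for Rad51c). Sycp1 had a log2 fold change of −0.65 ± 0.23 in NELF-B cKO mice (adjusted p = 0.250) and −0.02 ± 0.20 in TDP-43 cKO mice (adjusted p = 0.961). Without NELF-B cKO replicate 2 Sycp1 was called at −1.10 (adjusted p = 0.0441), and without replicate 1 it was at −0.28 (adjusted p = 0.397).

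Several structural genes were lower in both NELF-B cKO mice than in every control mouse without passing the test. Syce3, a central element protein, was at 492 to 587 CPM in the controls and 333 and 411 CPM (−0.68 ± 0.14, adjusted p = 0.114). Hormad2, which marks unsynapsed axes, was at 223 to 269 CPM and 141 and 207 CPM (−0.63 ± 0.16, adjusted p = 0.152). Sun1, which ties telomeres to the nuclear envelope, was at 77.2 to 92.8 CPM, then 53.8 and 73.0 CPM, and 56.1 to 61.5 CPM in TDP-43 cKO mice (adjusted p = 0.171 and 0.0512). Syce3 (−0.85, adjusted p = 0.0435), Hormad2 (−0.94, 0.0392) and Sun1 (−0.83, 0.0471) were called without NELF-B cKO replicate 2, and none of the 3 without replicate 1 (−0.50, −0.34 and −0.35). Over all genes 20.5% were without overlap between the NELF-B cKO and the control mice.

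Of the remaining lists, the piRNA pathway gave 0 higher and 1 lower of 23 in TDP-43 cKO mice, where 0.342% of all genes were lower (median −0.29; −0.45 in NELF-B cKO mice). The gene that fell was Ddx4, the germ cell helicase, from 376 to 422 CPM in the controls to 244, 293 and 290.2 CPM (−0.54 ± 0.11, adjusted p = 0.0297), and it was at 306 and 313 CPM in NELF-B cKO mice (adjusted p = 0.152). The transcription regulators of meiosis gave 2 higher and 0 lower of 21, beside 5.06% of all genes higher (median −0.24; −0.14 in NELF-B cKO mice), Taf7l and Dmrt1. Dmrt1, which holds SG in mitosis and is made in Sertoli cells too, was at 14.6 to 27.2 CPM, then 31.0 and 54.5 CPM, then 95.8, 39.3 and 57.8 CPM (1.59 ± 0.35, adjusted p = 0.0400), beside 96.9 to 133 CPM in the free RNA of the TDP-43 cKO and 15.8 to 33.3 CPM in that of the controls. With members holding a Tardbp UMI removed in all mice, the log2 fold change of Dmrt1 was −0.0076. The pausing factors, with DSIF, P-TEFb and NELF subunits other than the targeted Nelfb, gave 0 of 27 in either cKO (medians 0.03 and −0.03). Of all genes, 5.40% were called in TDP-43 cKO mice and 0.00657% in NELF-B cKO mice. Proteins related to TDP-43 gave 2 higher and 0 lower of 33 (median 0.06; −0.21 in NELF-B cKO mice), the X-linked Rbmx and Nono, a share near the 5.06% of all genes called higher. Nono was at 21.1 to 29.7 CPM in the controls, 40.0 and 86.7 CPM in NELF-B cKO mice and 54.1 to 63.8 CPM in TDP-43 cKO mice (1.16 ± 0.25, adjusted p = 0.0360).

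Immediate early and heat shock genes gave 11 higher and 0 lower of 22 in TDP-43 cKO mice (5.06% of all genes higher) and 0 in NELF-B cKO mice, with a median log2 fold change of 1.35 in both. Fos was at 18.2 to 29.1 CPM in the controls, 105 and 156 CPM in NELF-B cKO mice and 170.4, 100.0 and 87.9 CPM in TDP-43 cKO mice (2.27 ± 0.29, adjusted p = 0.100, and 2.23 ± 0.27, adjusted p = 0.0111). Btg2, Egr1 and Jund rose in TDP-43 cKO mice by 1.62, 1.58 and 1.34. Free RNA held 255 to 819 CPM of Fos in the TDP-43 cKO libraries against 37.8 to 63.1 CPM in those of the controls. With deep members left out and free RNA subtracted, 0 of 13 genes tested passed in either cKO and the medians were 0.18 and −0.11, where 273 of all 10859 genes tested were called higher in TDP-43 cKO mice and 18 in NELF-B cKO mice. Without deep members alone 7 of 21 were called higher in TDP-43 cKO mice and 1 in NELF-B cKO mice, with medians of 1.03 and 1.33, and 420 and 29 of all 13132 genes tested were called higher. Without members holding other-lineage UMIs 0 of 13 passed in TDP-43 cKO mice and the median was 0.40, where 70 of all 8463 were called higher. With members holding a UMI of the targeted gene removed from cKO mice, 1 of 21 passed in TDP-43 cKO mice and the median was 0.63, where 242 of all 14025 were called higher.

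Outside the lists, the rule for naming genes took those with the largest change that did not overlap. Beyond Gm5934 and H2bfm, those that rose in TDP-43 cKO mice were Hbb-bs, Gm35533, Kalrn, Erg, Glis3 and Ftl1. Kalrn, a guanine nucleotide exchange factor, was at 40.8, 88.8, 65.4 and 83.9 CPM in the controls, 262 and 114 CPM in NELF-B cKO mice and 301, 457 and 463 CPM in TDP-43 cKO mice (2.52 ± 0.34, adjusted p = 0.0138). It was also higher in the members than in either neighbouring gate of the controls, at 36.2 and 15.3 CPM, and was called with deep members left out and free RNA subtracted. Gm50299, first among the marking genes, was at 50.3 to 68.7 CPM, then 57.2 and 41.9 CPM, then 125.1, 136 and 158 CPM (1.26 ± 0.16, adjusted p = 0.0113, and −0.34 ± 0.19, adjusted p = 0.473, in NELF-B cKO mice). It was called without deep members (adjusted p = 0.0208), and the call was lost when free RNA was subtracted as well (adjusted p = 0.0608).

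The other genes that rose were set beside free RNA or single mice. Hbb-bs, an adult beta globin, was at 0 to 4.62 CPM in the controls, 17.3 and 19.1 CPM in TDP-43 cKO replicates 1 and 2 and 239 CPM in replicate 3, and it reached 1299 CPM in the free RNA of these libraries. Ftl1, ferritin light chain, was at 53.9 to 78.7 CPM in the controls and 590.3, 285 and 274 CPM in TDP-43 cKO mice (2.37 ± 0.32, adjusted p = 0.0138), beside 467 to 1752 CPM in free RNA. The transcription factor genes Glis3 and Erg and the predicted gene Gm35533 were highest in TDP-43 cKO replicate 1. None of the 3 was called without that mouse (adjusted p = 0.159, 0.0859 and 0.126) or without control replicate 1 (0.0875, 0.0653 and 0.0904). With members holding a UMI of the targeted gene removed from cKO mice only, the log2 fold change of Erg turned to −1.10.

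Beside Tardbp, the 8 genes that fell most in TDP-43 cKO mice, among those called with a mean of at least 20 CPM and no overlap, were all higher in the Piwil1 gate than in the Stra8 gate of the control mice. Slc26a8, an anion transporter of sperm, was at 57.5, 69.3, 68.3 and 53.8 CPM in control members, 55.3 and 57.8 CPM in NELF-B cKO mice and 26.0, 28.2 and 32.9 CPM in TDP-43 cKO mice (−1.11 ± 0.16, adjusted p = 0.0165), beside 125.5 CPM in the control Piwil1 gate and 31.9 CPM in the Stra8 gate. Catsperd, a subunit of the sperm calcium channel, was at 44.4 to 54.6 CPM and at 16.6, 30.3 and 23.0 CPM in TDP-43 cKO mice (−1.09 ± 0.24, adjusted p = 0.0397). Klhdc1, 4930558J18Rik, Rfc2, Trim11, Ptcd2 and Pomt1 fell by 1.24, 1.22, 1.08, 1.06, 0.85 and 0.82 on the log2 scale. In free RNA each of the 8 was lower in every TDP-43 cKO library than in every control library, as with Slc26a8 at 14.1 to 52.0 and 66.3 to 98.3 CPM. The share of all genes without overlap in free RNA was not counted. Nor was the share of all genes that were higher in the Piwil1 gate than in the Stra8 gate. With deep members left out and free RNA subtracted, Klhdc1 (adjusted p = 0.0313) and Slc26a8 (0.0436) were called and the other 6 were not, while all 8 were called without deep members alone, and with both steps the log2 fold change of Trim11 was 0.0019. Of these 8, the NELF-B cKO mice were also below the controls without overlap for 4930558J18Rik, Trim11 and Pomt1, with no call. Over all genes 20.5% were without overlap in that contrast, in either direction.

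In NELF-B cKO mice, where only Nelfb passed, the other named genes are the 3 of lowest p in each direction. Zfp704 was at 21.1 to 28.9 CPM in the controls, 86.3 and 63.0 CPM in NELF-B cKO mice and 85.9 to 91.2 CPM in TDP-43 cKO mice (1.49 ± 0.18, adjusted p = 0.100, and 1.85 ± 0.17, adjusted p = 0.00556). Vdac1, the mitochondrial outer membrane channel, was at 13.6 to 18.8 CPM, 43.7 and 45.9 CPM and 43.3 to 52.2 CPM (1.42 ± 0.19, adjusted p = 0.100, and 1.60 ± 0.17, adjusted p = 0.00746). Fos, given above, was the third. On the lower side Ube2e2, a ubiquitin-conjugating enzyme, was at 232 to 285 CPM in the controls and 135 and 175 CPM in NELF-B cKO mice, and Spint2, a serine protease inhibitor, at 283 to 352 CPM and 171 and 187 CPM (adjusted p = 0.108 for both). In TDP-43 cKO mice both overlapped the control range (adjusted p = 0.902 and 0.539). Nbas was at 103 to 124 CPM, 64.3 and 65.9 CPM, and 77.7 to 83.0 CPM (−0.90 ± 0.13, adjusted p = 0.100, and −0.50 ± 0.11, adjusted p = 0.0411). Without NELF-B cKO replicate 2 the log2 fold changes of Zfp704, Fos and Vdac1 were 1.68, 1.955 and 1.37. Those of Ube2e2, Spint2 and Nbas were −1.10, −1.01 and −0.93. Without replicate 1 they were 1.27, 2.56 and 1.49, and −0.68, −0.83 and −0.85, in the same order. In the edgeR fit of all 9 mice the direct test between the cKO genotypes called Nelfb alone. In so few mice, the lack of calls for these and the X-linked genes does not show that the genotypes were alike. The X-linked median log2 fold change from NELF-B cKO to TDP-43 cKO was 0.36 in that fit, beside 0.05 for autosomal genes. DESeq2 called 88 genes in that contrast, among them 16 X-linked genes higher and 2 lower in TDP-43 cKO mice. Both contrasts use the same 4 control mice.

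Of the genes named here, 40 passed in TDP-43 cKO mice. Still called were 12 without TDP-43 cKO replicate 1, 22 without replicate 2, 3 without replicate 3, 21, 21, 4 and 23 without control replicates 1 to 4, and all 40 without either NELF-B cKO mouse. With deep members left out and free RNA subtracted, 16 of 37 were called, and without members holding other-lineage UMIs 15 of 36. Gm5934 and Zfp704 were called without each of the 9 mice.

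The members' other gate genes differed between groups as well, and these values, which chose the members, are given without a test. Rad51ap2 was at 281, 270.1, 350.0 and 326 CPM in the controls, 184 and 250.1 CPM in NELF-B cKO mice and 297, 352 and 373 CPM in TDP-43 cKO mice. Ccnb3 was at 114 to 129 CPM, 205 and 289 CPM, and 313 to 368 CPM. The long non-coding A830018L16Rik was at 165 to 414 CPM, 664 and 274 CPM, and 855 to 1249.6 CPM. Tafa1 was at 62.6 to 146 CPM, 289 and 82.2 CPM, and 206 to 276 CPM, and Ccdc152 at 188 to 215 CPM, 121 and 204 CPM, and 158 to 201 CPM. Piwil1, whose upper limit ends the gate, was at 84.5 to 107 CPM in the controls, 55.7 and 24.1 CPM in NELF-B cKO mice and 7.70, 35.1 and 28.2 CPM in TDP-43 cKO mice.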

How the data were processed

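The values are UMI counts, whole numbers for each gene in each barcode. The authors deposited these counts as Cell Ranger output on mm10, before any choice of cells. The submitters' notes name Cell Ranger 6.1.1 and 7.0.0, and the file headers give another version. No reads were mapped again. Members were found by the rule in the report. No doublet caller was run, and doublets were kept. Members and gene lists were chosen with earlier results of these data known.

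UMIs were summed over the members of each mouse and tested in R 4.3.3 with the quasi-likelihood test of edgeR 4.0.16 (genes kept by filterByExpr, TMM factors) in 1 fit of all 9 mice, without the 9 gate genes. Genes were called at a Benjamini-Hochberg adjusted p under 0.05. Log2 fold changes are given ± SE. Shares were tested with exact two-sided permutation tests in scipy 1.17.1. DESeq2 1.42.0 was an alternative. CPM scale each sum to the same total. A chromosome was found for 99.6% of 32285 genes in a gene annotation of mm10, and 1083 were X-linked. The script was tested on simulated data. Alternatives left out each mouse, changed the gate, normalization, filter and fit, thinned members to 5000 UMIs, or left out members with UMIs of the targeted gene or in at least 2 markers of another lineage. Added after seeing the data were a gate without Ccnb3 and Zfy2, members without those of over 2.5 times the median UMIs of their mouse, also with free RNA subtracted, members of at least 1% X-linked UMIs, and a fit without NELF-B cKO replicate 1 and TDP-43 cKO replicate 1.

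Genes are named by a rule: the gate genes, Sycp1, the targeted genes and 4 genes the study names, up to 8 called genes per direction with the largest change, at least 20 CPM and no overlap (or the 3 of lowest p), the called list members of lowest p, and the 12 marking genes. Of the lists, 2 genes had no match.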

Additional observations from a re-analysis of the deposited data

Results flagged for a closer look

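In 4 of 83 measures checked in the 4 control mice, 1 mouse lay apart from the other 3 by more than a 95% Dixon limit, and chance alone gives this in about 1 group of 20. Piwil1, a gene of the gate, was at 84.5 CPM in control replicate 4 and at 104 to 107 CPM in the others. Ftl1 was at 53.9 CPM in control replicate 1 and 77.1 to 78.7 CPM in the others. Ptcd2 was at 20.8 CPM in control replicate 2 against 26.8 to 27.7 CPM, and Hexim1, an inhibitor of P-TEFb, at 21.1 CPM in the same mouse against 13.8 to 15.0 CPM. Nelfb differed between the cKO genotypes, with a log2 fold change of 2.73 from NELF-B cKO to TDP-43 cKO. It was the only call of that contrast in the edgeR fit of all 9 mice. The call was lost in 6 of the 9 fits that left out 1 mouse. DESeq2 called 88 genes in that contrast.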

How the results depend on the processing

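The X-linked difference kept its sign in every alternative run but not its size. When 1 mouse was left out it ranged from 0.407 to 0.795 percentage points for NELF-B cKO (0.601 with all) and 0.974 to 1.16 for TDP-43 cKO (1.06 with all). Over the other alternatives it ranged from 0.241, with overlap, without members under 1% X-linked UMIs, to 0.795 for NELF-B cKO, and from 0.713, without deep members and free RNA, to 1.22 for TDP-43 cKO. For NELF-B cKO the share of members turned from lower to higher as a share of prophase barcodes (0.669), with at least 4 gate genes (0.279), with members holding a UMI of a targeted gene removed in all mice (1.15), without members under 1% X-linked UMIs (0.802) and without both mice that stood apart (0.893), and ran from −1.31 to 0.995 without 1 mouse. It fell further to −4.38 after thinning. For TDP-43 cKO it ran from 5.83 to 12.3 without 1 mouse, and was 0.764 with removal in cKO mice, 4.45 with removal in all mice, 3.71 after thinning and 3.45 without members holding other-lineage UMIs. The log2 progress difference of NELF-B cKO turned negative with removal in cKO mice (−0.25052), thinning (−0.24971), no other-lineage members (−0.40), removal in all mice (−0.31), 0 Stra8 and 0 Piwil1 UMIs (−0.11), the gate without Ccnb3 and Zfy2 (−0.00336), no deep members (−0.29) and without both mice (−1.02), and ran from −1.02 to 1.04 without 1 mouse. That of TDP-43 cKO turned to 0.39 without deep members and free RNA, was −0.85 with removal in cKO mice and −0.48 without deep members alone, and ran from −0.75 to −0.20 without 1 mouse.

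Counts of called genes moved most, and the cause was not tested. For NELF-B, TDP-43 and TDP-43 against NELF-B, in that order, they were 459, 1662 and 88 with DESeq2, 0, 2495 and 0 with only the 2 groups fitted, 986, 1477 and 5 with the progress ratio as covariate, 0, 22 and 3 with removal in all mice, 2, 272 and 5 with removal in cKO mice, 30, 313 and 22 without deep members and free RNA, 0, 342 and 0 without other-lineage members, and 3415, 2746 and 1071 without both mice that stood apart. Leaving out 1 mouse gave 1 to 450, 13 to 2417 and 0 to 3845. For NELF-B cKO, 0 Stra8 and 0 Piwil1 UMIs gave 4, at least 4 gate genes 6, thinning 53 and no deep members 40. For TDP-43 cKO, an adjusted p under 0.01 with a 2-fold change gave 13, 0 Stra8 and 0 Piwil1 UMIs 93 and no members under 1% X-linked UMIs 339. Between the cKO genotypes the stricter threshold gave 0 and thinning 6. The higher and lower calls of TDP-43 cKO were 235 and 488 after thinning, 420 and 585 without deep members, 1269 and 393 with DESeq2, 1635 and 860 with the 2 groups, 1104 and 373 with the covariate, 267 and 72 without members under 1%, 1470 and 1276 without both mice, 1711 and 706 without NELF-B cKO replicate 1 and 1677 and 689 without NELF-B cKO replicate 2. With the replicate block 0 genes were called in each contrast. Same-numbered mice are different animals, and their deviations from the group means correlated at −0.766 to 0.269 over 7 pairs. With 2 NELF-B cKO mice these deviations mirror each other, as at 0.269 and −0.269 with control replicate 1. Not every mouse correlated best with its own number, but such correlations cannot show whether the numbers pair the mice.

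Of the 40 named genes called in TDP-43 cKO, 3 changed sign in 1 alternative each: Erg (−1.10, removal in cKO mice), Trim11 (0.0019, no deep members or free RNA) and Dmrt1 (−0.0076, removal in all mice). In the fits without 1 mouse 186 of their 360 fold changes were still called, and in the others 466 of 664. The summed members of the shallowest mouse held 1372756 UMIs, which limits genes of low level.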
